A study of Homo sapiens with 6 samples.

Results

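Antisense transcripts are RNAs read from the DNA strand opposite a named gene, and their symbols carry that gene's name followed by -AS and a number. The transcripts described here are the rows of the deposited gene table whose symbol ends that way, outside the HOX loci and without EPB41L4A-AS1, and whose level reached an FPKM of at least 1 in all 3 DMSO libraries or in all 3 inhibitor libraries. FPKM scales fragments to transcript length and library size, so levels are per length. Of 1116 such symbols, 173 met the threshold, out of 35974 rows in all. Each had a row for the sense gene of the same name stem, which gave 173 pairs. RNA was sequenced from SU-DHL-8, a line from a human diffuse large B-cell lymphoma described as wild type for DNMT1, after DMSO, the solvent (3 libraries), or after the DNMT1 inhibitor GSK3685032 (3 libraries). DNMT1 copies DNA methylation onto newly made strands. Inhibitor replicate 2 carries the treatment label GSK3685033 and inhibitor replicate 3 carries GSK3685034. The series design knows only GSK3685032, and titles set the groups. No source used here states a dose, a duration or separate cultures, so the spread behind each p-value may be technical. All 6 libraries are of 1 cell line, and in bulk RNA fewer expressing cells cannot be told apart from less RNA per cell.

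Antisense transcripts can start at the same promoter as their sense gene and run away from it, or start inside or beyond the gene and run back across it. Some act on the gene beside them, by forming RNA duplexes, by blocking its transcription or by recruiting chromatin enzymes, and many have no known role. CpG-rich promoters are often shared by both directions, and their methylation silences transcription.

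Libraries held 53846028 to 75304441 estimated counts. Of 9 B-cell markers, 8 were at an FPKM of at least 1 in every library, and no marker of T cells, myeloid cells, stroma or epithelium was (2, 5, 4 and 4 of these in the table). Summed epithelial marker levels were 0 to 0.0144 FPKM with DMSO and 2.74 to 4.15 with the inhibitor, and those of 3 plasma cell markers 84.7 to 86.4 and 51.6 to 52.9. Of these 3, only XBP1 was at an FPKM of at least 1 in every library. The part of the epithelial and plasma cell markers in the results was not tested. DNMT1 itself measured 33.0 ± 0.690 FPKM with DMSO and 12.7 ± 0.774 with the inhibitor (SD, n = 3 each).

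The threshold chose 109 transcripts through both groups, 36 through the inhibitor libraries alone and 28 through the DMSO libraries alone. These same FPKM values are the ones compared below, so the levels of the antisense transcripts are given as a description, without a test. A transcript chosen through 1 group alone had to be lower in at least 1 library of the other. The nearest transcripts inside the threshold were JDP2-AS1, whose lowest DMSO value was 1.01 FPKM, and CTNS-AS1, at 1.03. The nearest outside were KTN1-AS1 at 0.997 and CKMT2-AS1 at 0.984. All 173 passed the filter on low counts of the edgeR fit over 20783 genes. In that fit 65 antisense transcripts lay past an adjusted p of 0.05 as higher with the inhibitor, 48 as lower, and 60 did not pass. Of all genes in the fit, 38.1% were higher and 27.3% lower, and among the 12160 tested genes that met the same FPKM rule 33.6% were higher and 41.2% lower. Every inhibitor library was above every DMSO library for 69 of the antisense transcripts and below for 58, beside 41.7% and 30.0% of all genes in the fit. Because the rule used the same values, nothing is read from these counts. Upper-quartile scaling raised the median log2 change over all genes by 0.17 and gave 75 higher and 36 lower. Where a pair overlaps, reads of 1 partner may have been counted for the other, and the extent was not tested. No source used here states whether the counting used strand, although the libraries were stranded. All 36 transcripts chosen through the inhibitor alone had a positive difference in mean log2(FPKM + 0.5), from 0.14 to 3.27, and all 28 chosen through DMSO alone a negative one, from -2.37 to -0.04. The 109 chosen through both groups ran from -1.64 to 1.66 with a median of 0.02.

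**Figure D1:**
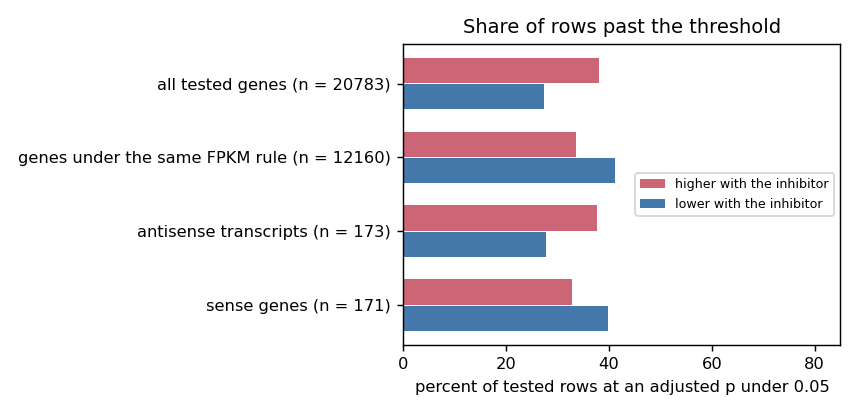
Percent of tested rows past an edgeR adjusted p of 0.05, higher (red) or lower (blue) with the inhibitor, for all tested genes, for genes meeting the same FPKM rule, for the antisense transcripts (chosen on these values) and for their sense genes. The sense genes were higher in 32.7% and lower in 39.8%, beside 33.6% and 41.2% of genes under the same FPKM rule.

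Most of the antisense transcripts were scarce. Their mean FPKM had a median over transcripts of 2.01 with DMSO and 2.2 with the inhibitor, and the sense genes had 7.58 and 6.84. The sense gene's FPKM was a median of 3.78 times that of the antisense transcript with DMSO (168 pairs whose antisense transcript was above 0) and 3.12 times with the inhibitor. In 35 pairs the antisense transcript was the more abundant per length in both groups. Summed over the 173, the level was 525 to 539 FPKM in the DMSO libraries and 540 to 571 in the inhibitor libraries. On these same values, more of the 173 were chosen through the inhibitor alone than through DMSO alone. Nothing is therefore read from the difference between the sums.

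The most abundant with DMSO was OIP5-AS1 (ENSG00000247556, chromosome 15, 41283990 to 41309737), a conserved noncoding RNA also called Cyrano that binds RNA-regulating factors. It measured 36.0, 35.4 and 35.4 FPKM in the DMSO libraries and 15.6, 15.0 and 16.1 with the inhibitor. Every inhibitor library was thus below every DMSO library, and the edgeR log2 difference was -1.20. MIF-AS1, which runs across the cytokine gene MIF and was the most abundant with the inhibitor, measured 33.7, 29.3 and 29.5 FPKM with DMSO and 26.0, 23.6 and 25.7 with the inhibitor. FGD5-AS1 measured 17.6 ± 0.806 and 14.7 ± 0.914 FPKM, while its sense gene FGD5, a guanine nucleotide exchange factor of endothelium, was near 0 in every library (at most 0.0117 FPKM). THAP9-AS1 measured 16.7 ± 0.928 and 12.6 ± 1.03 FPKM, and GABPB1-AS1 16.3 ± 0.192 and 12.5 ± 1.30. All 5 of the most abundant transcripts were lower in every inhibitor library than in any DMSO library. Except for OIP5-AS1, their log2 differences were small, from -0.41 to -0.26. MIF fell from 248 ± 17.2 to 207 ± 2.22 FPKM (log2 change -0.27, edgeR adjusted p = 0.00152), and GABPB1, a subunit of an ETS-family transcription factor, from 8.69 ± 0.341 to 7.30 ± 0.15 (log2 change -0.26, edgeR adjusted p = 0.00177). Neither passed under upper-quartile scaling (adjusted p = 0.135 and 0.178) or with inhibitor replicate 1 alone (0.0514 and 0.0544). THAP9, a gene derived from a transposase, fell from 2.44 ± 0.0933 to 1.36 ± 0.0883 FPKM (log2 change -0.85, edgeR adjusted p = 0.000222).

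The largest differences upward belonged to transcripts below an FPKM of 1 in every DMSO library. Of those described here, 4 had 0 counts in every DMSO library. PROSER2-AS1 (ENSG00000225778, chromosome 10, 11849608 to 11894700) was at 0 in the 3 DMSO libraries and at 4.06, 4.77 and 4.16 FPKM with the inhibitor, at least 256-fold higher against a floor of 12 counts over the DMSO group. TENM2-AS1 (ENSG00000253978, chromosome 5, 168229583 to 168269415), inside the neuronal adhesion gene TENM2, went from 0 to 3.35, 4.11 and 2.93 FPKM, at least 40.5-fold higher. MAGEA4-AS1 (ENSG00000229967, chromosome X, 151904431 to 151911455), beside a cancer-testis antigen gene, went from 0 to 2.05, 2.60 and 2.098 FPKM, at least 65.0-fold higher. These 3 were without a single count with DMSO and above 2 FPKM in every inhibitor library. BOK-AS1 (ENSG00000234235, chromosome 2, 241544403 to 241558977), at a gene of the BCL2 family, went from 0 to 1.64, 3.29 and 1.87 FPKM, at least 26.6-fold higher. Among these 4, inhibitor replicate 2 held the highest value each time. NHSL1-AS1 (ENSG00000225177, chromosome 6, 138692548 to 138697288) had 1 count over the DMSO libraries and 1.65, 1.38 and 1.97 FPKM with the inhibitor.

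Another 4 had low but detectable DMSO levels. AFAP1-AS1, opposite a gene for an actin-binding protein, measured 0.0119, 0 and 0.0196 FPKM with DMSO and 1.28, 1.52 and 1.25 with the inhibitor. TSPAN14-AS1 measured 0.406, 0.361 and 0.209 FPKM and then 2.93, 3.34 and 2.35. URB1-AS1 measured 0.135, 0.576 and 0.0604 FPKM and then 2.03, 1.95 and 2.02, and DMSO replicate 2 stood above the other DMSO libraries. Without that library its edgeR log2 difference was 4.27 in place of 2.89. ADARB2-AS1, inside a brain-expressed relative of the RNA-editing enzymes, measured 0.209, 0.226 and 0.419 FPKM and then 1.40, 2.24 and 2.74. The groups could not overlap in these transcripts. All were below an FPKM of 1 in every DMSO library and chosen at 1 or more in every inhibitor library.

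**Figure D2:**
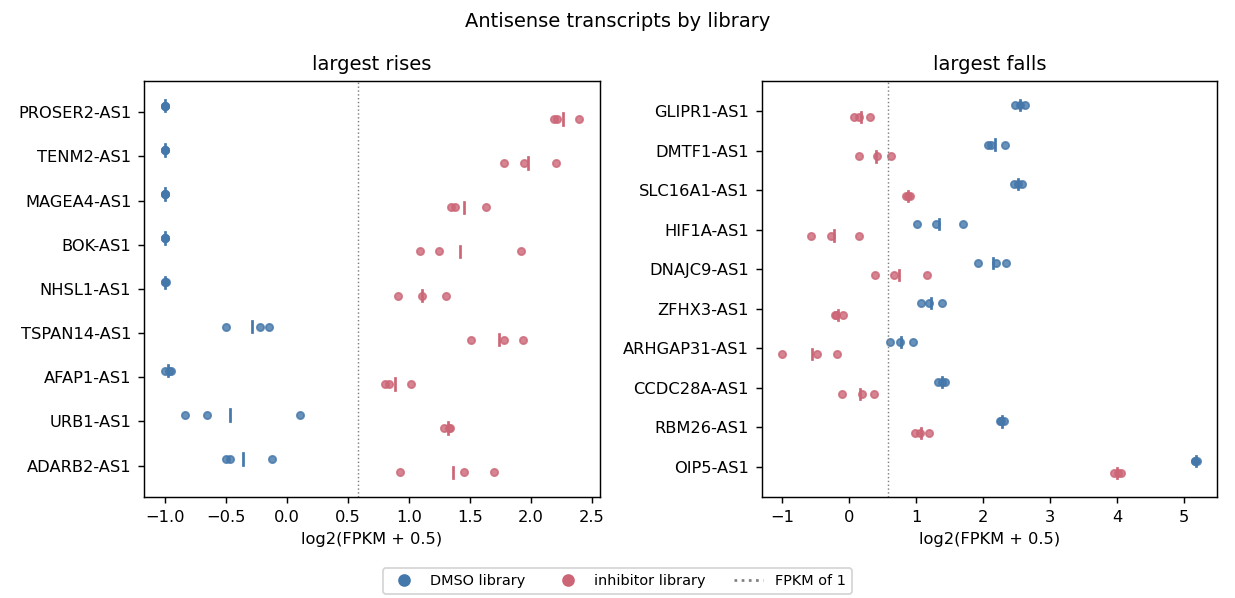
Level of the antisense transcripts with the largest differences upward (left, 9 transcripts) and downward (right, 10), as log2(FPKM + 0.5) in each DMSO (blue) and inhibitor (red) library; short bars are group means and the dotted line marks an FPKM of 1. PROSER2-AS1 sits at 0 FPKM in every DMSO library and at 4.06 to 4.77 with the inhibitor. No group overlaps another within a row, in transcripts picked by level and by size of difference on these same values.

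Promoter windows, each 250 bases before to 50 after a RefSeq start site on GRCh38.p14, were found for 126 of the antisense transcripts and lay within 1000 bases of the deposited start for 112. The 4 shown first belong to transcripts with at most 1 DMSO count and are shown because their CpG content differs widely. They are printed 5′ to 3′ on the transcript's strand, with CpG dinucleotides in capitals.
PROSER2-AS1: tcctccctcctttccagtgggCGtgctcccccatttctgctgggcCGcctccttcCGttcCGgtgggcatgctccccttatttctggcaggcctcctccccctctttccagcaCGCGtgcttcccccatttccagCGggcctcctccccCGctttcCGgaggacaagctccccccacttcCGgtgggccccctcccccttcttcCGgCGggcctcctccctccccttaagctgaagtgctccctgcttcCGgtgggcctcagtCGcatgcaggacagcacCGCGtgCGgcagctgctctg
BOK-AS1: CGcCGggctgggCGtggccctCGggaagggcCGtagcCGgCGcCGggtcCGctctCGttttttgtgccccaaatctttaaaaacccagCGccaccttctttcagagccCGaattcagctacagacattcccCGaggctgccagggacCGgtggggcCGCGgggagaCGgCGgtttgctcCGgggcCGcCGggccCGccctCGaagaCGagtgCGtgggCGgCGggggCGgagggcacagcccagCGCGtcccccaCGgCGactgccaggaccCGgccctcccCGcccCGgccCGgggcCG
NHSL1-AS1: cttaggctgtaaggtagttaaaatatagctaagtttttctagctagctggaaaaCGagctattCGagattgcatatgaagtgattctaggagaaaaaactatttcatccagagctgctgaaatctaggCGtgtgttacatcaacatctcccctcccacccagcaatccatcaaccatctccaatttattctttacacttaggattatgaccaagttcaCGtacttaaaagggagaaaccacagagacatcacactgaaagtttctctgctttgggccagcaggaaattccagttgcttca
MAGEA4-AS1: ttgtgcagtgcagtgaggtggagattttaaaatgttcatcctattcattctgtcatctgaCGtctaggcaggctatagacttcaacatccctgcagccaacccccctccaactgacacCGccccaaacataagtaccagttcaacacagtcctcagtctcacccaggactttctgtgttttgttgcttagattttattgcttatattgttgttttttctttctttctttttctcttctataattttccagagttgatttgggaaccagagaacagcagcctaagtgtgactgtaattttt
The PROSER2-AS1 window (chr10:11894661-11894960, minus strand) held 17 CpGs and the BOK-AS1 window (chr2:241559094-241559393, minus strand) held 37. The NHSL1-AS1 window (chr6:138691418-138691717, plus strand) held 4 and the MAGEA4-AS1 window (chrX:151911034-151911333, minus strand) 2. The windows of these 4 transcripts thus ranged from CpG-rich to CpG-poor. Only the PROSER2-AS1 window holds the deposited start, so the other windows may not be the promoters used by these transcripts. Their RefSeq starts lay 10, 166, 880 and 372 bases from the deposited ones, in the order printed. Over the 112 windows the median was 22.5 CpGs (range 1 to 61), beside 25 in the windows of 123 sense genes and 14 in all 35116 windows of the table. It was 19.5 in the 18 transcripts with a positive difference of at least 1 in log2(FPKM + 0.5), 24 in the 11 with a negative one of that size, and 22 in the other 83.

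Exact matches on either strand to 4 motifs that hold a CpG were counted in the same windows. CCGGAAGT, a site of ETS factors, was in 7.14% of antisense windows (8 of 112), 11.4% of sense-gene windows and 4.14% of all windows. For CACGTG, the E-box, the shares were 6.25%, 8.13% and 7.26%. TGACGTCA, the cyclic AMP response element, was in 1.79%, 4.07% and 1.85%. The NRF1 site, a palindrome searched as an exact match, was in 1.79%, 4.07% and 1.24%. These shares describe letters only, and the antisense and sense-gene windows held more CpGs at the median than all windows.

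The 10 largest differences downward were led by GLIPR1-AS1 (ENSG00000257497, chromosome 12, 75483454 to 75489820), which lies wholly within GLIPR1, a gene for a secreted cysteine-rich protein. It measured 5.06, 5.64 and 5.34 FPKM with DMSO and 0.554, 0.602 and 0.737 with the inhibitor, a log2 difference of -3.09. DMTF1-AS1 measured 4.52, 3.71 and 3.86 FPKM and then 1.05, 0.611 and 0.836. SLC16A1-AS1 measured 5.51, 4.99 and 5.23 FPKM and then 1.30, 1.33 and 1.38. HIF1A-AS1, opposite the gene of the hypoxia factor, measured 1.53, 1.96 and 2.75 FPKM and then 0.325, 0.604 and 0.174. The last 3 of these start within 1000 bases of the start of their sense gene, while GLIPR1-AS1 starts inside the body of GLIPR1.

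DNAJC9-AS1 measured 3.97 ± 0.632 FPKM with DMSO and 1.21 ± 0.485 with the inhibitor. ZFHX3-AS1 measured 1.84 ± 0.261 and 0.390 ± 0.0397 FPKM, and CCDC28A-AS1 2.12 ± 0.0913 and 0.623 ± 0.184. RBM26-AS1 measured 4.36 ± 0.107 and 1.61 ± 0.153 FPKM. ARHGAP31-AS1 was at 1.03, 1.19 and 1.44 FPKM with DMSO and at 0.385, 0 and 0.218 with the inhibitor. With OIP5-AS1 these complete the 10. In none did the groups overlap, but the 10 were picked by the size of the difference in these same values.

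The rule did not read the rows of the sense genes, so their change was tested. Where partners overlap, reads of the antisense transcript that chose the pair may be among the sense gene's counts, which was not tested. Of 173 sense genes 171 passed the filter, 56 rose and 68 fell by edgeR's quasi-likelihood test at an adjusted p of 0.05, and 47 did not pass. As percentages of those tested, 32.7% rose and 39.8% fell, beside 38.1% and 27.3% of all genes in the fit and 33.6% and 41.2% of genes under the same FPKM rule. The median log2 change was 0.01, beside 0.14 over all genes in the fit. Upper-quartile scaling turned the balance to 82 higher and 49 lower. By edgeR's log2 change, 25 sense genes rose (14.6% of those tested) and 12 fell (7.02%) by at least 2-fold, beside 25.3% and 8.10% of all genes in the fit. On the log2(FPKM + 0.5) scale 15 sense genes were at least 2-fold higher and 9 lower. FGD5 and TENM2, at or near 0 throughout, were not tested.

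The sense genes with the largest falls on the log2(FPKM + 0.5) scale included OIP5, RASSF1, C5orf34, TAPT1 and POLH. OIP5, which helps load the centromeric histone, measured 9.10, 6.92 and 9.24 FPKM and then 1.45, 1.09 and 1.75 (log2 change -2.56, SE 0.214, edgeR adjusted p = 4.66e-06). RASSF1, a RAS-binding tumour suppressor, fell from 40.1 ± 1.82 to 12.9 ± 0.919 FPKM (log2 change -1.64, edgeR adjusted p = 5.26e-08). C5orf34 fell from 7.99 ± 0.224 to 2.54 ± 0.551 FPKM and the membrane protein gene TAPT1 from 68.9 ± 0.868 to 28.0 ± 1.84. POLH, the polymerase that copies past ultraviolet damage, fell from 34.2 ± 0.600 to 14.8 ± 0.627 FPKM (log2 change -1.21, edgeR adjusted p = 5.41e-08). Their antisense transcripts did not share a direction. C5orf34-AS1 was counted as higher, and OIP5-AS1 and TAPT1-AS1 (5.00 ± 0.159 and 4.24 ± 0.122 FPKM) as lower. RASSF1-AS1 measured 2.13 ± 0.254 and 1.42 ± 0.421 FPKM and did not pass the threshold, and POLH-AS1 overlapped between groups (2.58 ± 0.162 and 2.67 ± 0.367).

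The largest increases among sense genes were in genes silent or low with DMSO. MAGEA4 (ENSG00000147381, chromosome X, 151912495 to 151925170), a cancer-testis antigen of a family whose similar copies make its counts uncertain, was at 0 with DMSO and at 70.7, 90.9 and 64.6 FPKM with the inhibitor (edgeR adjusted p = 2.62e-08). MAFA, a transcription factor of pancreatic beta cells, had 2 counts over the DMSO libraries and then 8.85, 7.41 and 7.73 FPKM (edgeR adjusted p = 1.71e-08). MAFA-AS1, whose end lies next to it, was already present with DMSO at 1.25, 0.757 and 0.512 FPKM and reached 2.43, 2.61 and 2.46. ASMTL (ENSG00000169093, chromosome X, 1403139 to 1453762) rose from 2.33, 2.70 and 2.24 FPKM to 30.0, 36.4 and 27.8 (log2 change 3.68, SE 0.115, edgeR adjusted p = 1.66e-08). ASMTL-AS1 moved the same way at a lower level, from 1.55 ± 0.162 to 4.76 ± 0.428 FPKM.

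NRSN2, a gene of neuronal vesicles, rose from 0.794, 0.370 and 0.401 FPKM to 4.43, 3.86 and 3.87 (log2 change 2.94, SE 0.279, edgeR adjusted p = 1.08e-05). NRSN2-AS1 stayed within 2.59 to 3.47 FPKM in all 6 libraries. EPN2, an endocytic adaptor, rose from 0.372 ± 0.0390 to 2.79 ± 0.231 FPKM (log2 change 2.88, edgeR adjusted p = 6.95e-08), while EPN2-AS1, inside it, was lower, 8.89, 7.35 and 7.81 FPKM and then 5.01, 5.23 and 6.58. TRAF3IP2, an adaptor of interleukin receptors, rose from 0.400 ± 0.0312 to 2.40 ± 0.179 FPKM (log2 change 2.56, edgeR adjusted p = 4.65e-08), and TRAF3IP2-AS1 measured 2.24 ± 0.0710 and 1.75 ± 0.0505. In these 3 pairs the antisense transcript was the more abundant with DMSO, and no exon bases are shared between partners.

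**Figure D3:**
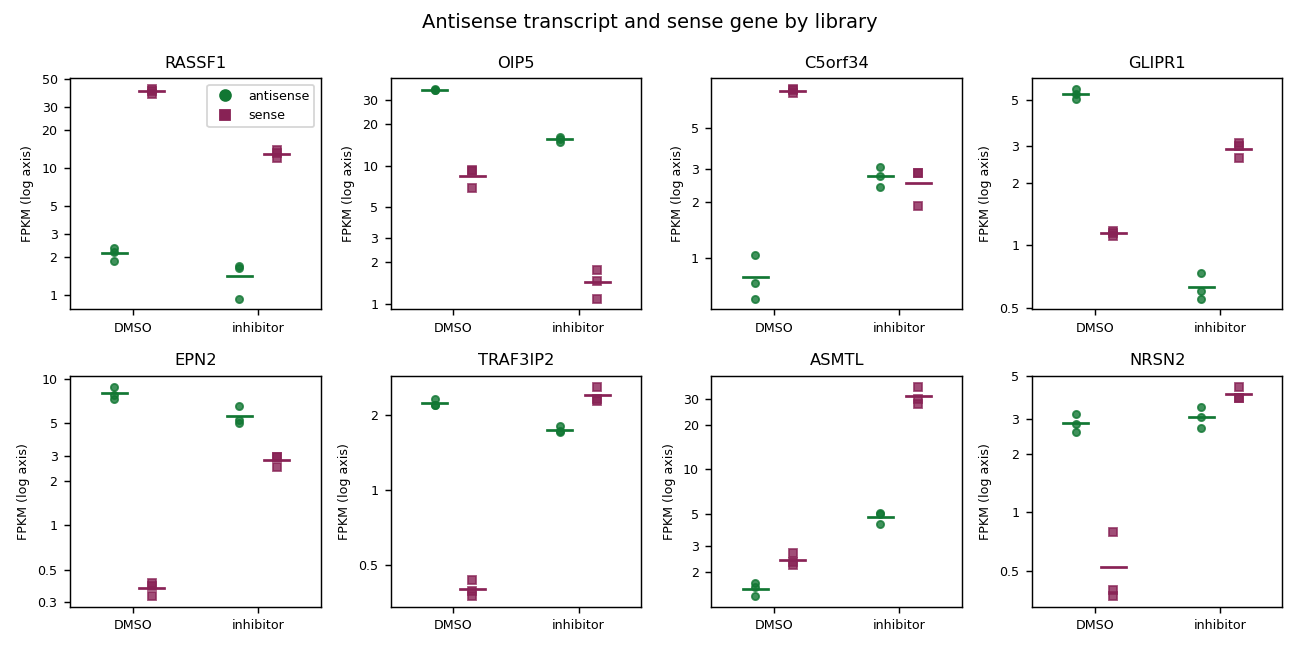
FPKM (log axis) of the antisense transcript (green circles) and the sense gene (purple squares) in each library, for 8 pairs; bars are group means. C5orf34 falls from 7.99 to 2.54 FPKM while C5orf34-AS1 goes from 0.788 to 2.75; both OIP5 partners are lower with the inhibitor and both ASMTL partners higher.

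In 2 pairs both partners differed at least 2-fold in opposite directions on the log2(FPKM + 0.5) scale. C5orf34-AS1 measured 0.729, 1.04 and 0.601 FPKM with DMSO and 2.77, 3.08 and 2.40 with the inhibitor, against the fall of C5orf34 (log2 change -1.66, SE 0.153, edgeR adjusted p = 9.13e-06). GLIPR1 rose from 1.15, 1.10 and 1.17 FPKM to 2.62, 3.11 and 3.01 (log2 change 1.34, SE 0.105, edgeR adjusted p = 2.97e-06) against the lower GLIPR1-AS1. GLIPR1 was below its antisense transcript in every DMSO library and above it in every inhibitor library, while C5orf34 went from above in every DMSO library to overlapping levels.

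The sense genes of the transcripts with the largest differences upward did not share a direction. PROSER2 and BOK, with 4 and 5 DMSO counts, reached 0.173 ± 0.00493 and 0.227 ± 0.0505 FPKM (edgeR adjusted p = 0.000561 and 0.00124), far below their antisense transcripts. AFAP1 rose from 0.147 ± 0.0241 to 0.444 ± 0.0767 FPKM (log2 change 1.59, edgeR adjusted p = 0.000176). TSPAN14 rose slightly (log2 change 0.20, edgeR adjusted p = 0.00204). ADARB2 fell from 3.34 ± 0.209 to 2.24 ± 0.236 FPKM (edgeR adjusted p = 0.000241). URB1, a ribosome biogenesis gene whose start lies 83 bases from that of URB1-AS1, measured 9.13 ± 0.0848 and 9.08 ± 0.445 FPKM and did not pass (log2 change -0.01, SE 0.042, edgeR adjusted p = 0.772). With upper-quartile scaling URB1 passed as higher (adjusted p = 0.00947). NHSL1, whose deposited interval lies 120007 bases from NHSL1-AS1, did not pass either (edgeR adjusted p = 0.184), but passed as lower without inhibitor replicate 1 (adjusted p = 0.0358).

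Among the sense genes of the 10 transcripts with the largest differences downward, HIF1A fell from 82.3 ± 3.41 to 48.3 ± 3.43 FPKM (log2 change -0.78, edgeR adjusted p = 1.12e-06), DNAJC9, a histone co-chaperone, from 14.8 ± 0.301 to 6.53 ± 0.446 (edgeR adjusted p = 5.07e-07) and RBM26, an RNA-binding protein, from 22.7 ± 0.997 to 17.0 ± 1.23 (edgeR adjusted p = 7.12e-05). ARHGAP31, whose protein acts on small GTPases, rose from 0.356 ± 0.0790 to 0.842 ± 0.0954 FPKM (edgeR adjusted p = 0.000405). CCDC28A rose from 34.4 ± 0.836 to 39.8 ± 2.60 FPKM (edgeR adjusted p = 0.0196), and did not pass without DMSO replicate 3 (adjusted p = 0.0598) or inhibitor replicate 1 (adjusted p = 0.0686). DMTF1 (18.2 ± 0.352 and 18.6 ± 1.94 FPKM), the lactate transporter SLC16A1 (29.6 ± 0.910 and 31.3 ± 0.143) and ZFHX3 did not pass (edgeR adjusted p = 0.761, 0.131 and 0.313). All 3 passed as higher with upper-quartile scaling (adjusted p = 0.0225, 0.000385 and 0.0449), and SLC16A1 also with DESeq2 (0.0446), with the filter on FPKM (0.00291), with counts divided by 4 (0.0414) and without DMSO replicate 2 (0.0496).

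URB1-AS1 and DMTF1-AS1 are shown because each starts close to its sense gene (83 and 11 bases between deposited starts), while the sense gene did not pass the test. CpGs are in capitals.
URB1-AS1: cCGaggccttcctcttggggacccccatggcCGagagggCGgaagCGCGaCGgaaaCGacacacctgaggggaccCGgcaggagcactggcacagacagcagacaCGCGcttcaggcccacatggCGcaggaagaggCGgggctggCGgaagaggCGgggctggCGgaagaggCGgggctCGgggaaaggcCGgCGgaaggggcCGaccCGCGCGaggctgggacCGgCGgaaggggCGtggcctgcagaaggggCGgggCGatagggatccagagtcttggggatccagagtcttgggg
DMTF1-AS1: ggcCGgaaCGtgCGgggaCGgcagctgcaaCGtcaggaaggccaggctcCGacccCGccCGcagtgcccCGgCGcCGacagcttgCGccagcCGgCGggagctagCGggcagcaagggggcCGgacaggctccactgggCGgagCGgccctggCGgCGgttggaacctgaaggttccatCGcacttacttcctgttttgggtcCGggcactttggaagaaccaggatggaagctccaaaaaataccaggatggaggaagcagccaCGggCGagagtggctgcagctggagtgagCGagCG
The URB1-AS1 window (chr21:32392883-32393182, plus strand) held 28 CpGs and the DMTF1-AS1 window (chr7:87152444-87152743, minus strand) 26. Both counts are above the median of 14 over all windows. The DMTF1-AS1 window does not hold the deposited start, which lay 73 bases from the RefSeq start, so it may not be the promoter used. Each window overlaps the window of its sense gene (chr21:32392963-32393262 for URB1, chr7:87152203-87152502 for DMTF1), so the partners' windows share bases.

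Positions were compared with the direction of change in all pairs. The deposited intervals overlapped in 151 pairs, and in 172 the partners lay on opposite strands, the exception being HILPDA-AS1, which the table places on the strand of HILPDA (named after its values were seen). In 54 pairs the partners lay head to head, on opposite strands with start sites within 1000 bases of each other. Of 171 tested pairs, 97 (56.7%) had log2 changes of the same sign and 74 of opposite sign. For the head-to-head pairs it was 32 of 54 (59.3%), and for all other tested pairs, HILPDA among them, 65 of 117 (55.6%). Among the 84 pairs with both partners past the threshold, 54 moved the same way (28 up and 26 down) and 30 in opposite ways. In 19 of those 30 the antisense transcript was higher and the sense gene lower.

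The share of pairs with the same sign was also counted by shared exon sequence. By the exons of GENCODE release 29, which held 171 of the antisense transcripts and can differ from the deposited models, partners shared exon bases in 137 pairs (a median of 277 bases). Some of these pairs have deposited intervals that do not overlap at all, such as LIMD1 (1029 shared bases), PSMB8 (618) and MAGEA4 (172). The 2 classes therefore need not hold for the deposited models, and the shares were not counted again without such pairs. The sign was the same in 83 of 136 tested pairs that shared exon bases (61.0%) and in 13 of 33 that did not (39.4%). With both partners past the threshold it was 47 of 66 and 7 of 17. Whether reads counted for both partners contribute to these shares was not tested, and the difference between the shares was not tested. Over the 171 pairs Pearson's r of the log2 changes was 0.436 and Spearman's rho 0.230, and over the 108 tested pairs chosen through both groups they were 0.125 and 0.168. These are descriptions across pairs that share the same 6 libraries.

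**Figure D4:**
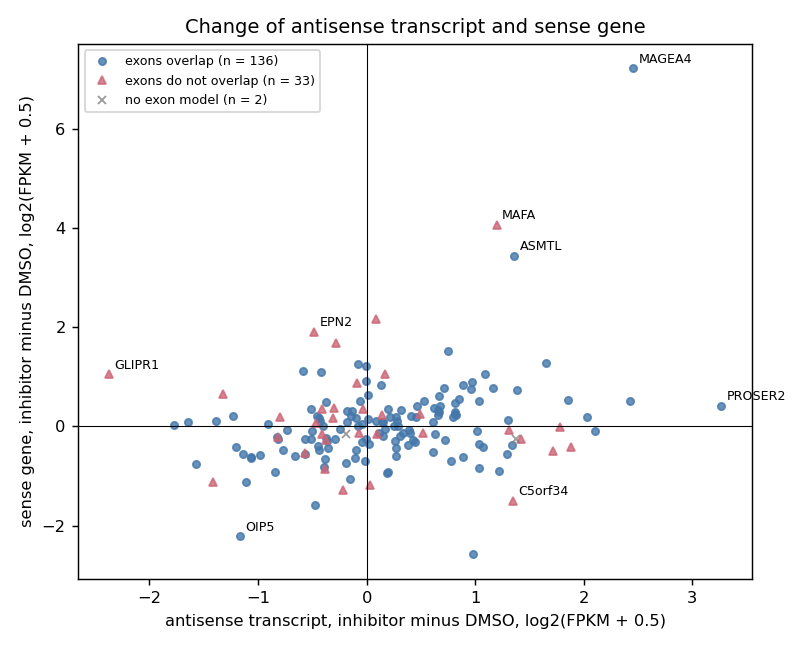
Inhibitor minus DMSO difference in mean log2(FPKM + 0.5) of the antisense transcript (x axis) and the sense gene (y axis) for 171 tested pairs, by whether GENCODE 29 exons of the partners overlap. Points spread over all 4 quadrants; MAGEA4, MAFA and ASMTL lie high on the right, and GLIPR1 and C5orf34 lie in the quadrants of opposite sign.

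Other transcripts and genes give the setting. Antisense symbols below the FPKM threshold numbered 943, of which 461 were tested, 152 were higher (33.0%) and 47 lower (10.2%). Divergent transcripts, whose symbols end in -DT and which run away from a neighbouring promoter, numbered 69 by the same FPKM rule, with 23 higher (33.3%) and 20 lower (29%). Paired sense and antisense RNA can form double-stranded RNA, so 24 genes that bind, cut, edit or sense it were listed. Of 23 tested, 5 rose (21.7%) and 13 fell (56.5%), beside 38.1% and 27.3% of all genes in the fit. Among genes under the same FPKM rule, which some of the 23 did not meet, 33.6% rose and 41.2% fell. The median log2 change of the 23 was -0.17, against 0.14 over all genes in the fit. The sensor IFIH1 fell from 8.17 ± 0.400 to 3.34 ± 0.272 FPKM (log2 change -1.30, edgeR adjusted p = 7.77e-07) and the nuclease DROSHA from 8.86 ± 0.659 to 5.69 ± 0.189 (edgeR adjusted p = 1.49e-05). The editing enzyme ADAR measured 55.5 ± 0.675 and 49.6 ± 1.78 FPKM (log2 change -0.17, edgeR adjusted p = 0.00673), a fall no larger than the shift that upper-quartile scaling makes.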

How the data were processed

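Poly(A)-selected, dUTP-stranded RNA libraries were sequenced at both ends, per the labels' protocols. The submitters' processing notes name StringTie 2.1.6, HISAT2 2.2.1, cutadapt 1.9, edgeR and DESeq2 without their roles, and the mouse build mm10. The gene IDs are human, and 170 of the 173 antisense transcripts overlapped their GENCODE 29 position on GRCh38, so deposited coordinates were read as GRCh38. Each gene has 2 values per library from the authors: an FPKM and, in whole numbers, an estimated count. A count of 4 was commoner (1320 genes per library on average) than 3 (725.8) or 5 (474.5), so 4 counts were taken as about 1 read pair and 12 counts as the floor. Bounds cover counting error only.

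Counts were fitted with edgeR 4.0.16 in R 4.3.3 (filterByExpr, TMM, quasi-likelihood test, Benjamini-Hochberg adjustment over 20783 genes, two-sided, threshold 0.05). SE is the log2 change divided by the square root of F. No libraries of a group were identical, and their differences were 3.30 to 6.83 times sampling variance. The fit was also run on simulated counts, whose spread was taken from the fit of the data. It recovered 36% of 50 genes changed 1.5-fold, 70% of 50 at 2-fold, 84% of 50 at 4-fold and 94% of 50 at 8-fold. Of 20583 unchanged genes it called 6. A gene that did not pass may therefore still have changed, since some 4-fold and 8-fold changes were missed as well as smaller ones.

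The members and lists were chosen with earlier results of these data known. Named were the 5 most abundant transcripts, the 10 largest rises and falls in mean log2(FPKM + 0.5), pairs with opposite changes of at least 2-fold on that scale, and the 6 called sense genes with the largest rise and fall on it. Promoter windows are from RefSeq. A few items that this rule selects are not reported here.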

Additional observations from a re-analysis of the deposited data

How the results depend on the processing

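The number of antisense transcripts chosen was 287 at an FPKM threshold of 0.5 and 103 at 2. The numbers of sense genes and antisense transcripts past the threshold and of same-sign pairs stayed within 1.5 times of those reported under the alternatives run for them: upper-quartile factors, DESeq2 1.42.0, other filters, counts divided by 4, limma 3.58.1 with a pseudocount of 0.5, 0.1 or 1 added to FPKM before log2, each library left out, and inhibitor replicate 1 alone (52 sense genes higher and 59 lower, 52 and 32 antisense transcripts). Leaving out 1 library gave 53 to 60 sense genes higher and 61 to 67 lower, 59 to 62 antisense transcripts higher and 43 to 47 lower, and 93 to 100 pairs of the same sign. Same-sign pairs were 63.6% of the 22 whose intervals do not overlap and, by alternatives chosen after seeing the data, 39.4% of the 33 that share no exon bases and 57.4% of those chosen through both groups. Among the named sense genes that had not passed, the sign turned for 3: NHSL1 (0.069 with upper-quartile factors, 0.014 with inhibitor replicate 1 alone), URB1 (0.16 with upper-quartile factors, 0.004 with DESeq2, 0.082 with the FPKM filter, 0.014 with counts divided by 4, and -0.041 to 0.007 with each library left out, positive without inhibitor replicate 1) and DMTF1 (-0.113 with inhibitor replicate 1 alone and -0.041 to 0.087 with each library left out, negative without inhibitor replicate 3), and the cause was not tested. With the replicate number as a block, 56 sense genes were higher and 66 lower, and 61 and 47 antisense transcripts. Whether the numbers pair the samples was not settled. Deviations of same-numbered libraries correlated at 0.0752, 0.0673 and 0.000326, and those of other combinations at -0.11 to 0.0476. DMSO replicates 1 and 2 correlated best with their own number, and DMSO replicate 3 did not. With 3 libraries in each group this check cannot decide. Levels under the floor of 12 counts per group limit folds for silent transcripts to lower bounds.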
